A study of Rattus norvegicus with 8 samples.

Results

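The antioxidant and thiol redox genes of the rat aorta were followed here through 35 named genes, from the superoxide dismutases to the regulators of the NRF2 pathway, out of 27742 rows of the deposited gene table. Each gene was found by its symbol, and where a symbol had several rows the row with the highest mean level was taken. Thoracic aorta came from 2 groups of 4 libraries. Nitroglycerin (GTN) was given subcutaneously to male, wild-type Sprague Dawley rats of 12 weeks at 100 mg/kg, 3 times a day for 3 days, and control rats received the ethanol vehicle on the same schedule. Whether every library is a separate animal is not stated in the labels, and p-values therefore measure the spread between these libraries, which may be technical. Levels are FPKM, fragments per kilobase of transcript scaled to library size, which divide out transcript length and depth.

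Aerobic cells turn superoxide into hydrogen peroxide with superoxide dismutases and clear the peroxide with catalase, glutathione peroxidases and peroxiredoxins. The thioredoxin and glutathione systems return the oxidised thiols of these enzymes to their reduced form at the cost of NADPH. Many of the genes are switched on by the transcription factor NRF2, which KEAP1 holds at a low level until its cysteines are modified. Nitroglycerin is an organic nitrate that the vessel wall converts to a nitric oxide donor, mainly through mitochondrial aldehyde dehydrogenase, an enzyme that depends on reduced thiols, and sustained dosing leads to tolerance and vascular oxidative stress.

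The promoters of 6 genes are shown first. Nfe2l2, Sod2 and Prdx4 are the 3 genes with the lowest p-values on the rescaled values described with the tests, and Prdx1, Gclm and Txnrd1 are known NRF2 targets whose windows held a motif match. RefSeq promoters (build GRCr8) run from 250 bases before to 50 after the gene start and were found for 30 of the 35 genes. Capitals mark matches to the core of the antioxidant response element, searched as TGACNNNGC on both strands. All are written 5′ to 3′ on the gene's own strand.
Nfe2l2, chr3:81028950-81029249, minus strand: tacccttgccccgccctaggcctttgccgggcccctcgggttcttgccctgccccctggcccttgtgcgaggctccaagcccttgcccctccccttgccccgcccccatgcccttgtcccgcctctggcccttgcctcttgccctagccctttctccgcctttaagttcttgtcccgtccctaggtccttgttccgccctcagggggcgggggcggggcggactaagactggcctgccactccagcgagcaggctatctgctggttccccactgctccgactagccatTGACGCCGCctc
Sod2, chr1:50050119-50050418, minus strand: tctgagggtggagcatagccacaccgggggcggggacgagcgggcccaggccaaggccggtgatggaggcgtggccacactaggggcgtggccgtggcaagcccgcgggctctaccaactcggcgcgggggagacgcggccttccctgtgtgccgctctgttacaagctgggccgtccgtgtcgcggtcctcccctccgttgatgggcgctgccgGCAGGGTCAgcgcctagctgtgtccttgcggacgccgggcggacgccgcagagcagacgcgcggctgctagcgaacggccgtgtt
Prdx4, chrX:43878483-43878782, plus strand: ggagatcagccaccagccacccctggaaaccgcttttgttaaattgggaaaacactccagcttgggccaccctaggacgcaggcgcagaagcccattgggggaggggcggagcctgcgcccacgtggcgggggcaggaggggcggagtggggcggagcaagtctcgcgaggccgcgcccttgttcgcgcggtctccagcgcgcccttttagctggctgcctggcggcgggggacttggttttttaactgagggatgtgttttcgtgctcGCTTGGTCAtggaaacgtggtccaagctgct
Prdx1, chr5:135383656-135383955, plus strand: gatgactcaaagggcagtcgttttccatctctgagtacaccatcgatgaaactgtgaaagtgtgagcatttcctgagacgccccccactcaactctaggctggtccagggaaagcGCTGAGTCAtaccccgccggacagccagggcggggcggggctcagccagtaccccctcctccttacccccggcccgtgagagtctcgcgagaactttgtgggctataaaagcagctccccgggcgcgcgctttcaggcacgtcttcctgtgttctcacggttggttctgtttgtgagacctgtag
Gclm, chr2:213031885-213032184, plus strand: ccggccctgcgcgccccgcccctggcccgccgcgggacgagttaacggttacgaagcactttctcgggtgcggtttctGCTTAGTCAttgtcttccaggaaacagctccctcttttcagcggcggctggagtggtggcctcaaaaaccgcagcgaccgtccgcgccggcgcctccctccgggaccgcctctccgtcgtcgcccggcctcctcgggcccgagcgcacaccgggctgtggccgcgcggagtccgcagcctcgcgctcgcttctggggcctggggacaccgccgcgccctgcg
Txnrd1, chr7:22755855-22756154, minus strand: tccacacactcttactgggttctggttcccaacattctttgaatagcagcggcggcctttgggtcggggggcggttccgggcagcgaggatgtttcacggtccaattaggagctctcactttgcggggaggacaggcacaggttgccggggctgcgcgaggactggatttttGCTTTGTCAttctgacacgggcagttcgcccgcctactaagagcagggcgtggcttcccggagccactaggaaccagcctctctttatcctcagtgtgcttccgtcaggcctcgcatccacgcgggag

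A match occurred in 8 of the 30 genes (26.7%), against 13.1% of the 27457 genes in the table and 12.1% of its 33469 promoters, and it describes letters, not a bound site. The other 2 genes with a match were Prdx5 and Msrb2. Prdx1 was alone among the 8 in having a match that also held the AP-1 motif TGANTCA, which reads alike on both strands. The AP-1 motif lies anywhere in the window in 7.33% of all promoters, including those of Srxn1 and Glrx. That share is therefore not comparable with a count inside the match. For Txnrd1, 1 of 2 listed promoters held the match, and that one is shown. No match was found in this window of Nqo1, Gclc and Srxn1, which are also known NRF2 targets. Gsr, Prdx6, Gpx8, Sod3 and Msra had no entry in the promoter table. The genes with a match did not share a direction after rescaling, with Sod2 at a log2 difference of 0.36 and Prdx4 at -0.29.

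None of the genes differed between nitroglycerin and control aorta past the threshold, an adjusted p under 0.05 over all 12977 rows tested, those reaching 1 FPKM in 4 or more libraries. In limma on log2(FPKM + 1), 0 of the 33 tested genes were called higher, against 1.29% of all rows, and 0 were called lower, against 0.0616%. Srxn1 and Msra lay below the filter. Of the 33, 30 reached 1 FPKM in all 8 libraries and none passed the filter through 1 group alone. At the unadjusted threshold of 0.05, 19 genes were higher, against 34.1% of all rows, and 0 were lower, against 1.02%. Values did not overlap between the groups for 9 genes, all higher in nitroglycerin, where 24.2% of all rows were higher and 0.478% lower in this way. The 9 were Sod2, Gpx4, Prdx3, Glrx2, Glrx3, Gclm, Gsr, Nfe2l2 and Keap1. With all rows of a symbol summed, the groups of Sod2, Gclm and Gsr overlapped.

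Most rows of the table lay in the same direction. The median log2 difference was 0.45 over the 33 genes and 0.30 over all rows tested, and 32 of the 33 genes and 86.6% of all rows lay above 0. FPKM is relative, and the 100 highest rows took 47.4 to 50.4% of the summed FPKM in nitroglycerin libraries, against 51.7 to 71.4% in controls. Control replicate 1 had the 71.4%, and the 35 genes made up 0.135% of its FPKM, against 0.210 to 0.337% in the other controls and 0.279 to 0.349% in nitroglycerin. Each library was therefore also divided by its median-of-ratios factor, 1.07 to 1.22 in nitroglycerin and 0.742 to 0.996 in controls, which brought the median row to 0.01.

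On that rescaled table the genes had a median log2 difference of 0.12, and 22 of the 33 lay above 0, against 52.4% of all rows. No gene was called, in a background of 0.0308% of rows higher and 0.1% lower. At an unadjusted p under 0.05, Sod2 and Nfe2l2 were higher and Prdx4 was lower, with 5.5% of all rows higher and 6.44% lower. The same 3 genes had groups that did not overlap, as did 3.78% of rows upward and 4.45% downward. The lowest adjusted p was 0.0558 as deposited, for Sod2, and 0.238 rescaled, for Prdx4. With all rows of 1 symbol summed, an alternative chosen after seeing the data, the rescaled median over the 33 was 0.056 and 19 lay above 0. Fold changes on the log2(FPKM + 1) scale understate those of low genes.

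**Figure D1:**
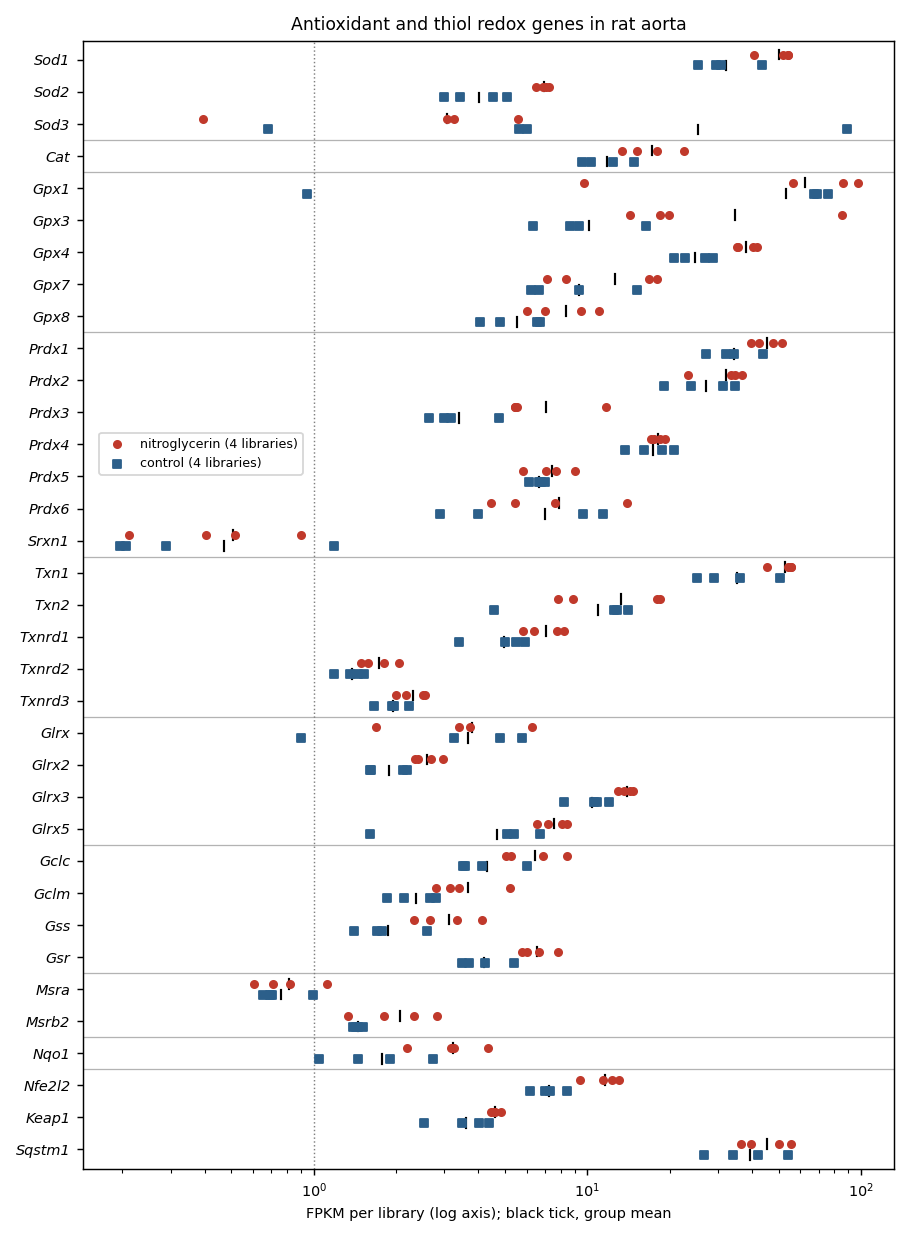
FPKM as deposited of the 35 genes in each library on a log axis, with nitroglycerin as red circles above control as blue squares, black ticks for group means, grey lines between functional groups and a dotted line at 1 FPKM. The highest means belong to Gpx1, Txn1 and Sqstm1, and single libraries stand far from their group for Sod3, Gpx1 and Gpx3.

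**Figure D2:**
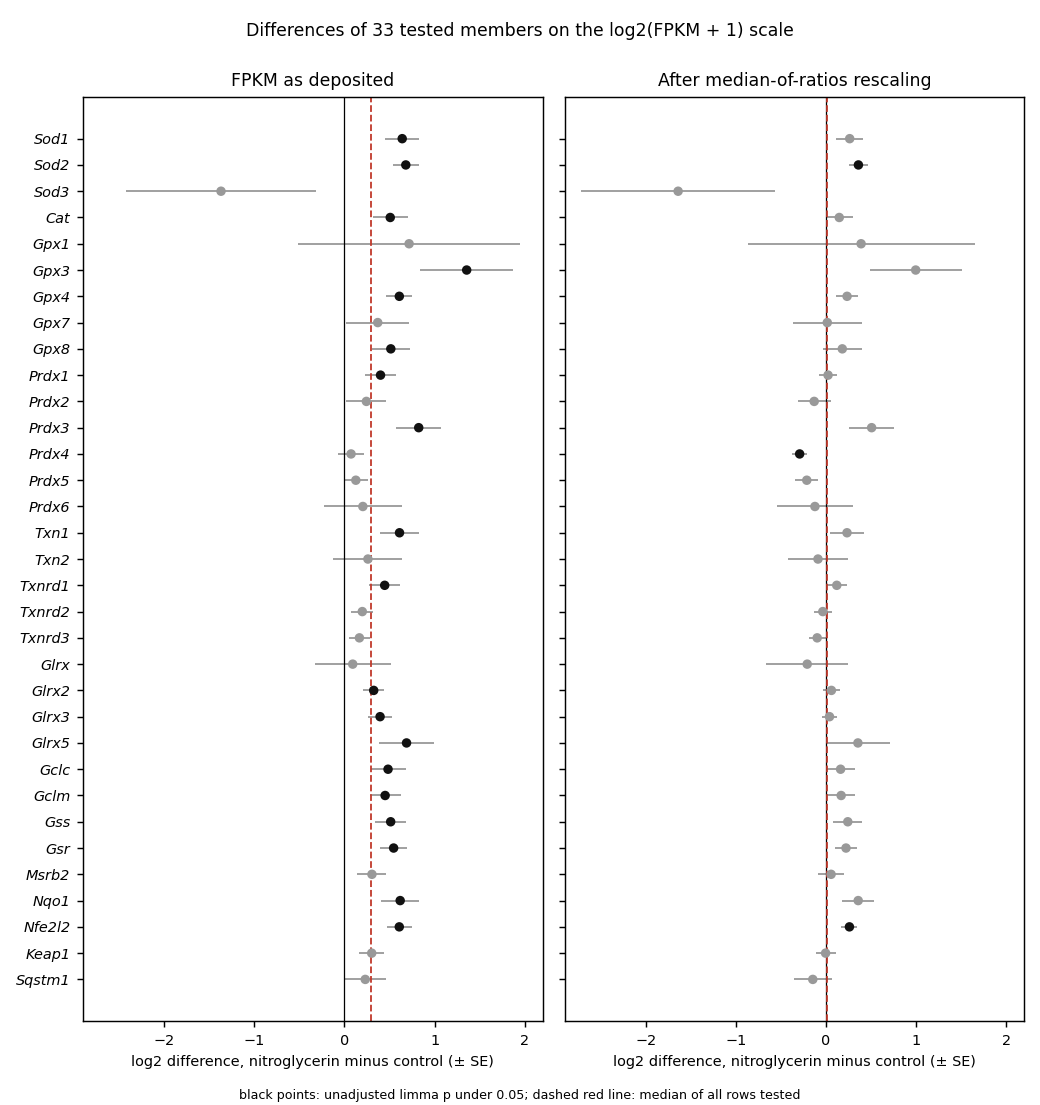
Log2 difference, nitroglycerin minus control, with its standard error for the 33 tested genes, as deposited (left) and after median-of-ratios rescaling (right), black where the unadjusted limma p is under 0.05. The 19 black points on the left become 3 on the right, and the dashed line, the median of all rows tested, moves to 0.01 on the right, against 0.30 on the left.

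Calls among these genes depended on which rows were tested and on library weights. With rows at 1 FPKM or more in all 8 libraries, 6 genes were called higher as deposited, against 12.4% of rows, and they were Sod1, Sod2, Gpx4, Prdx3, Gsr and Nfe2l2. With array weights, 8 were called (Sod1, Sod2, Gpx4, Txn1, Glrx3, Gss, Nqo1 and Nfe2l2), against 14.5% of rows. With annotated rows only, 3 were called (Sod2, Gpx4 and Nfe2l2), against 8.05% of rows.

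Of the NRF2 pathway's 3 regulators, 1 was higher at an unadjusted p under 0.05, a share like the 34.1% of all rows. Nfe2l2, which encodes NRF2, had 13.1, 9.42, 11.4 and 12.3 FPKM in nitroglycerin replicates 1 to 4, against 6.18, 8.45, 6.98 and 7.29 FPKM in control replicates 1 to 4. Every nitroglycerin library lay above every control. The log2 difference was 0.61 (SE 0.14, adjusted p = 0.0581), and leaving out any 1 library kept the unadjusted p under 0.05. As deposited, the same was true of Sod1, Sod2, Gpx4, Prdx3, Glrx3, Gss and Gsr. The share of all rows for which this holds was not computed. Rescaled, the libraries had 11.3, 8.83, 9.61 and 10.1 FPKM in nitroglycerin, against 8.33, 8.49, 7.68 and 8.06 FPKM in controls. The groups remained apart by a narrow margin, at a log2 difference of 0.26 (SE 0.089, adjusted p = 0.311), and the unadjusted p stayed under 0.05 in 6 of 8 fits that left out 1 library.

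Keap1, the adaptor that marks NRF2 for degradation, averaged 4.61 ± 0.158 FPKM in nitroglycerin and 3.6 ± 0.810 FPKM in controls (SD, n = 4 each). Its groups did not overlap as deposited, at a log2 difference of 0.30 (adjusted p = 0.157), and the rescaled difference was -0.0055. Sqstm1 encodes p62, an autophagy receptor that binds KEAP1, and RefSeq names 1 rat pseudogene of it. Here and below, pseudogenes were counted only where they are named after the gene's symbol. Genes without such a count may also have copies under other names. Sqstm1 had 55.4, 50.3, 39.6 and 36.4 FPKM in nitroglycerin, against 26.7, 42.2, 54.1 and 34.2 FPKM in controls. The groups overlapped over most of their range, and the log2 difference was 0.23 (SE 0.23, adjusted p = 0.477), or -0.15 rescaled.

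Superoxide dismutases differed from one another in level and in spread. Sod1, the cytosolic copper and zinc enzyme, had 54.2, 40.5, 51.8 and 54.2 FPKM in nitroglycerin, against 29.4, 43.6, 25.3 and 30.7 FPKM in controls. Nitroglycerin replicate 2 lay below control replicate 2, and the other nitroglycerin libraries lay above all controls. The log2 difference was 0.64 (SE 0.19, adjusted p = 0.0708), or 0.26 (adjusted p = 0.532) rescaled.

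Sod2, the mitochondrial manganese enzyme, had 6.48, 7.08, 7.25 and 6.88 FPKM in nitroglycerin, against 2.99, 5.09, 4.54 and 3.42 FPKM in controls. The nitroglycerin libraries were close together and all above the controls. The log2 difference was 0.68 (SE 0.15, adjusted p = 0.0558), and 0.36 (SE 0.11, adjusted p = 0.250) rescaled, with an unadjusted p under 0.05 in all 8 fits that left out 1 library on each scale. A further 2 rows of the table, with assembled transcripts only, carry the symbol Sod2. The larger had 0.0642, 0, 0 and 0 FPKM in nitroglycerin, against 2.57, 3.00, 4.89 and 0 FPKM in controls, so it was present in 3 of 4 controls and nearly absent from nitroglycerin. With all 3 rows summed, Sod2 had 6.55, 7.08, 7.41 and 6.88 FPKM in nitroglycerin, against 6.35, 8.08, 10.7 and 3.42 FPKM in controls. The controls then spread on both sides of the nitroglycerin libraries. The sums averaged 6.98 ± 0.361 FPKM in nitroglycerin and 7.13 ± 3.05 FPKM in controls (SD, n = 4 each). The log2 difference of the sum was 0.058 (SE 0.26, adjusted p = 0.881), or -0.28 (SE 0.27, adjusted p = 0.725) rescaled, and the direction of Sod2 rests on which rows are counted as the gene. RefSeq also names 1 rat Sod2 pseudogene.

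Sod3, the secreted enzyme of the vessel wall's matrix, was uneven within both groups. It had 3.07, 3.25, 0.393 and 5.56 FPKM in nitroglycerin, against 6.03, 89.0, 5.61 and 0.681 FPKM in controls. Control replicate 2 stood far above the rest. The log2 difference of -1.37 (SE 1.06, adjusted p = 0.354) became -0.27 without that library and -2.18 without control replicate 4, the one deposited fit of the 8 with an unadjusted p under 0.05. Catalase (Cat), which breaks down hydrogen peroxide in peroxisomes, had 22.5, 13.4, 15.2 and 18 FPKM in nitroglycerin, against 9.57, 14.9, 10.3 and 12.4 FPKM in controls. Control replicate 2 exceeded the lowest nitroglycerin library, and the log2 difference was 0.51 (SE 0.19, adjusted p = 0.104), or 0.15 rescaled.

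Of the 5 glutathione peroxidases, 3 were higher at an unadjusted p under 0.05 in the deposited FPKM, against 34.1% of all rows, and 0 after rescaling, against 5.5%. Gpx1, the abundant cytosolic form, had 9.73, 97.1, 85.9 and 56.6 FPKM in nitroglycerin, against 0.949, 76.1, 69.3 and 67.3 FPKM in controls. Replicate 1 was low in both groups. Its log2 difference was 0.72 (SE 1.23, adjusted p = 0.680), and it turned to -0.58 without control replicate 1 and was 1.44 without nitroglycerin replicate 1. Gpx3, the secreted plasma form, had 18.5, 14.3, 85.5 and 19.9 FPKM in nitroglycerin, against 8.63, 16.4, 6.31 and 9.29 FPKM in controls. Nitroglycerin replicate 3 was far above the other 7 libraries. The log2 difference was 1.36 (SE 0.52, adjusted p = 0.108) with all libraries and 0.80 without nitroglycerin replicate 3.

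Gpx4, which reduces lipid hydroperoxides in membranes, had 40.2, 35.4, 41.6 and 35.1 FPKM in nitroglycerin, against 22.7, 28.7, 26.9 and 20.7 FPKM in controls. The groups did not overlap as deposited. The log2 difference was 0.61 (SE 0.14, adjusted p = 0.0589), or 0.23 (SE 0.12, adjusted p = 0.483) rescaled. The endoplasmic reticulum forms overlapped between groups, with Gpx7 at 7.14 to 17.9 FPKM in nitroglycerin and 6.24 to 15.1 FPKM in controls. Gpx8 spanned 6.04 to 11 FPKM in nitroglycerin and 4.04 to 6.69 FPKM in controls, at a log2 difference of 0.51 (adjusted p = 0.121). RefSeq names 4 rat pseudogenes of Gpx4 and 1 of Gpx8, so reads may be divided among copies and these levels are uncertain.

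**Figure D3:**
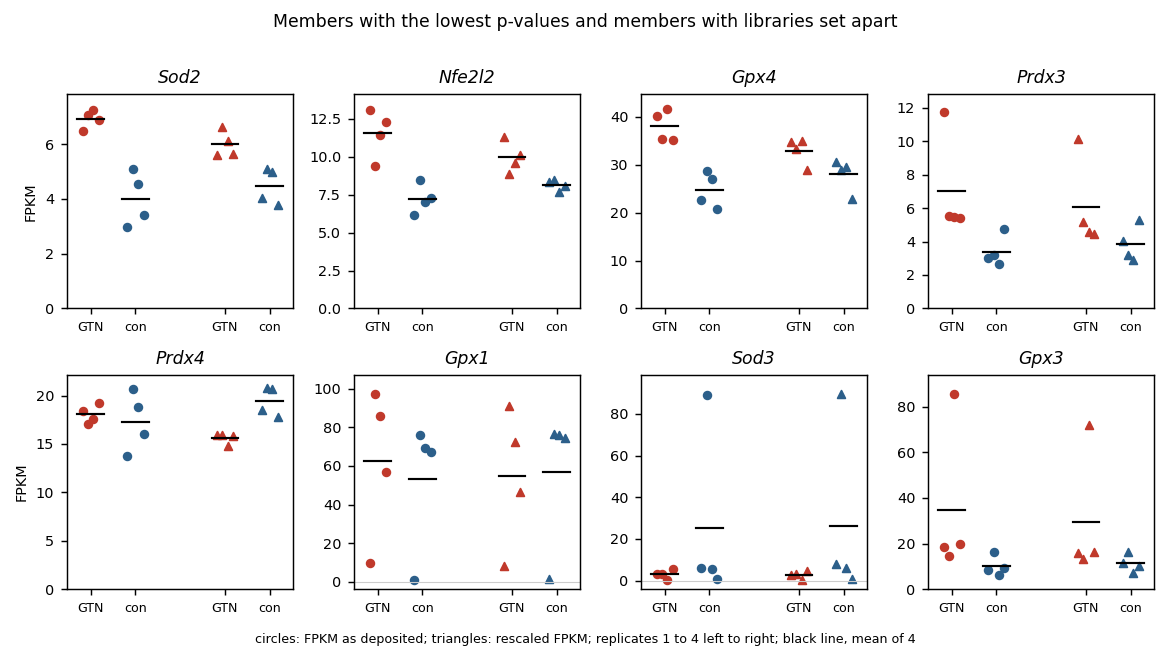
FPKM per library of 8 genes, as deposited (circles) and rescaled (triangles), with nitroglycerin (GTN, red) left of control (con, blue), replicates 1 to 4 from left to right and black lines for means of 4. Sod2 and Nfe2l2 stay apart on both scales in the rows shown, Prdx4 separates only after rescaling, and Gpx1, Sod3 and Gpx3 each have a library far from its group.

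The peroxiredoxins, thiol peroxidases that thioredoxin mostly recharges, held 4 of the 11 genes with a rescaled difference below 0, among them Prdx4, the single one with an unadjusted p under 0.05. Prdx4, the form of the secretory pathway, had 18.4, 17.0, 17.6 and 19.3 FPKM in nitroglycerin, against 13.7, 20.6, 18.8 and 16.1 FPKM in controls. As deposited, the nitroglycerin values lay inside the control range, at a log2 difference of 0.074 (SE 0.14, adjusted p = 0.721). Rescaled, the libraries had 15.9, 16, 14.8 and 15.8 FPKM in nitroglycerin, against 18.5, 20.7, 20.7 and 17.7 FPKM in controls. All nitroglycerin libraries were then below all controls, at a log2 difference of -0.29 (SE 0.084, adjusted p = 0.238), with an unadjusted p under 0.05 in all 8 fits that left out 1 library.

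Prdx3, the mitochondrial form, had 11.7, 5.52, 5.45 and 5.43 FPKM in nitroglycerin, against 2.99, 3.17, 2.65 and 4.77 FPKM in controls. Nitroglycerin replicate 1 was high and the other 3 were nearly equal, just above the highest control. In log2 terms the difference was 0.82 (SE 0.25, adjusted p = 0.0725), or 0.51 (adjusted p = 0.479) rescaled, and 0.58 as deposited without nitroglycerin replicate 1. Prdx1, a cytosolic form, had 47.7, 39.6, 42.2 and 51.3 FPKM in nitroglycerin, against 27.1, 43.7, 32.2 and 34.3 FPKM in controls. Control replicate 2 exceeded the lower pair of nitroglycerin libraries, and the log2 difference was 0.40 (SE 0.17, adjusted p = 0.133), or 0.022 rescaled.

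Prdx2, the form abundant in red blood cells, had 34.8, 23.3, 33.6 and 36.7 FPKM in nitroglycerin, against 23.9, 34.7, 31.4 and 19.0 FPKM in controls. The groups overlapped, at a log2 difference of 0.24 (SE 0.22, adjusted p = 0.427), or -0.13 rescaled. Prdx5 spanned 5.83 to 9.05 FPKM in nitroglycerin and 6.11 to 6.99 FPKM in controls, and Prdx6, which also has phospholipase activity, 4.45 to 14 FPKM in nitroglycerin and 2.89 to 11.4 FPKM in controls. Srxn1, the sulfiredoxin that repairs overoxidised peroxiredoxins, was low throughout, at 0.212 to 0.901 FPKM in nitroglycerin and 0.196 to 1.19 FPKM in controls. RefSeq names 7 rat pseudogenes of Prdx1, 3 of Prdx6 and 1 of Prdx3, so these levels are uncertain.

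In the thioredoxin system, 2 of 5 genes had an unadjusted p under 0.05 as deposited, both higher, near the 34.1% of all rows, and 0 after rescaling, against 5.5%. Txn1, cytosolic thioredoxin, had 54.3, 55.3, 55.6 and 45.3 FPKM in nitroglycerin, against 29.0, 50.8, 25.1 and 36.1 FPKM in controls. Control replicate 2 alone reached into the nitroglycerin range. In log2 terms the difference was 0.61 (SE 0.21, adjusted p = 0.0930), or 0.23 (adjusted p = 0.667) rescaled. Txnrd1, the cytosolic selenoenzyme that reduces it, averaged 7.04 ± 1.13 FPKM in nitroglycerin and 4.94 ± 1.10 FPKM in controls (SD, n = 4 each), with 1 control above the lowest nitroglycerin library. Its log2 difference was 0.45 (adjusted p = 0.107), or 0.12 rescaled.

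The mitochondrial pair overlapped between the groups. Txn2 spanned 7.81 to 18.4 FPKM in nitroglycerin and 4.54 to 14.1 FPKM in controls. Txnrd2 spanned 1.49 to 2.05 FPKM in nitroglycerin and 1.19 to 1.52 FPKM in controls. Txnrd3, a reductase best known from testis, spanned 2.00 to 2.55 FPKM in nitroglycerin and 1.66 to 2.24 FPKM in controls. Rescaled, Txn2 had a log2 difference of -0.090, Txnrd2 of -0.036 and Txnrd3 of -0.099. RefSeq names 1 rat pseudogene of Txn2, whose level is therefore uncertain.

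Of the 4 glutaredoxins, which use glutathione to reduce protein disulfides or carry iron-sulfur clusters, 3 had an unadjusted p under 0.05 as deposited, all higher, against 34.1% of all rows. Rescaled, 0 did, where 5.5% of all rows were higher and 6.44% lower. Glrx3, a cytosolic iron-sulfur protein, had 14.7, 13.6, 14.3 and 13.0 FPKM in nitroglycerin, against 8.21, 12.0, 10.6 and 10.9 FPKM in controls. The groups did not overlap as deposited. In log2 terms the difference was 0.40 (SE 0.13, adjusted p = 0.0878), or 0.038 rescaled. Glrx2, mostly mitochondrial, spanned 2.36 to 2.97 FPKM in nitroglycerin and 1.61 to 2.19 FPKM in controls. Glrx5, needed for mitochondrial iron-sulfur clusters, spanned 6.53 to 8.40 FPKM in nitroglycerin and 1.61 to 6.69 FPKM in controls, with control replicate 2 lowest. Without that library its log2 difference of 0.69 became 0.35. Glrx, the cytosolic form, ranged over 1.68 to 6.30 FPKM in nitroglycerin and 0.897 to 5.76 FPKM in controls, and RefSeq names 9 rat pseudogenes of it.

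All 4 genes of glutathione synthesis and recycling had an unadjusted p under 0.05 as deposited, where 34.1% of all rows were higher. After rescaling 0 of 4 did, where 5.5% of all rows were higher and 6.44% lower. The single genes Cat and Nqo1 also had an unadjusted p under 0.05 as deposited. The median log2 difference of the 4 was 0.50 as deposited and 0.19 rescaled. Gclc, the catalytic subunit of the rate-limiting ligase, spanned 5.05 to 8.44 FPKM in nitroglycerin and 3.50 to 6.02 FPKM in controls. Its modifier subunit Gclm spanned 2.81 to 5.24 FPKM in nitroglycerin and 1.85 to 2.80 FPKM in controls. Glutathione synthetase (Gss) spanned 2.32 to 4.12 FPKM in nitroglycerin and 1.40 to 2.6 FPKM in controls.

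Gsr, which regenerates reduced glutathione, had 5.76, 6.65, 6.03 and 7.78 FPKM in nitroglycerin, against 3.49, 4.22, 5.41 and 3.69 FPKM in controls. In this row its groups did not overlap as deposited, and its log2 difference was 0.55 (SE 0.15, adjusted p = 0.0639), or 0.22 (adjusted p = 0.536) rescaled. Gclm and Gsr each have a second, assembled-only row that was listed at 0 in all 4 nitroglycerin libraries. Their groups overlapped once the rows were summed, with control replicate 2 at 4.47 FPKM for Gclm and control replicate 3 at 7.02 FPKM for Gsr. With the rows summed, the log2 difference of Gclm was 0.19 (SE 0.25, adjusted p = 0.589), or -0.097 rescaled, and that of Gsr was 0.43 (SE 0.19, adjusted p = 0.135), or 0.11 rescaled. Summed in the same way, Txnrd2 had a log2 difference of 0.020, against 0.20 for its main row, and Gpx7 0.31, against 0.37.

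Repair of oxidised methionine was represented by Msra, at 0.606 to 1.12 FPKM in nitroglycerin and 0.652 to 0.995 FPKM in controls, and by Msrb2, the mitochondrial reductase, at 1.34 to 2.83 FPKM in nitroglycerin and 1.39 to 1.51 FPKM in controls. Nqo1, the quinone reductase often used as a readout of NRF2, had 4.33, 2.19, 3.17 and 3.26 FPKM in nitroglycerin, against 1.05, 2.72, 1.90 and 1.45 FPKM in controls. Control replicate 2 overlapped the lowest nitroglycerin library. In log2 terms the difference was 0.62 (SE 0.21, adjusted p = 0.0909), or 0.36 (SE 0.18, adjusted p = 0.472) rescaled.

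Across the 33 genes, control replicate 2 was the highest control in 22 and control replicate 1 the lowest in 16. In nitroglycerin, replicate 1 was highest in 14 and replicate 2 lowest in 17. After rescaling, control replicate 1 was the lowest control in 7 and control replicate 2 still the highest in 17.

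The genes that surround these pathways were read from the same fit. Among 8 partners of NRF2 and parts of the KEAP1 ligase, 1 was called higher, against 1.29% of all rows, and 0 were called lower. It was Maff, a small MAF protein that dimerises with NRF2 on DNA. Maff had 11.9, 11.7, 16.7 and 6.88 FPKM in nitroglycerin, against 5.20, 0.477, 0.588 and 0.524 FPKM in controls. All nitroglycerin libraries were above all controls, and control replicate 1 was far above the other controls. Among the controls, replicate 1 alone reached 1 FPKM, so Maff met the filter through the nitroglycerin libraries. The stricter filter, 1 FPKM in all libraries, left Maff untested. Maff rose by a log2 difference of 2.50 (SE 0.47, adjusted p = 0.0492) as deposited. Rescaled, the difference was 2.19 (SE 0.55) with an adjusted p of 0.183, within a range of 0.0139 to 0.390 over all alternatives that tested it. Without control replicate 1 the deposited difference was 3.01 (adjusted p = 0.0139), and leaving out any other library put the adjusted p between 0.0515 and 0.136.

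In the other 4 lists none was called in limma, in either direction, on either scale. Of 10 tested further NRF2 targets, 6 had an unadjusted p under 0.05 as deposited, all higher, against 34.1% of all rows, and 1 rescaled, against 5.5%. Ephx1, microsomal epoxide hydrolase, averaged 18.8 ± 4.84 FPKM in nitroglycerin and 9.07 ± 2.54 FPKM in controls (SD, n = 4 each). Its log2 difference was 0.98 (adjusted p = 0.0635), or 0.62 (adjusted p = 0.373) rescaled. Abcc1, an exporter of glutathione conjugates, averaged 6.07 ± 0.315 FPKM in nitroglycerin and 4.47 ± 0.502 FPKM in controls, at a log2 difference of 0.37, or 0.049 rescaled. Hmox1, haem oxygenase 1, named here after its values were seen, averaged 1.63 ± 0.648 FPKM in nitroglycerin and 1.08 ± 0.409 FPKM in controls (adjusted p = 0.298).

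Of 10 tested genes of glutathione handling, 8 had higher values with an unadjusted p under 0.05 in the deposited FPKM, where 34.1% of all rows did, and 0 rescaled, where 5.5% did. Idh2, a mitochondrial source of NADPH, averaged 37.9 ± 4.52 FPKM in nitroglycerin and 23.7 ± 2.12 FPKM in controls, at a log2 difference of 0.65 (adjusted p = 0.0543), or 0.27 rescaled. Slc3a2, a subunit of the cystine transporter, had a log2 difference of 0.55 (adjusted p = 0.0651), or 0.19 rescaled. Of 14 thioredoxin-system companions, 4 were higher and none lower in the deposited FPKM at an unadjusted p under 0.05, against 34.1% of all rows higher and 1.02% lower. Ccs, among the 4, averaged 1.56 ± 0.479 FPKM in nitroglycerin and 0.846 ± 0.179 FPKM in controls. Its control mean thus lay below the filter's 1 FPKM and its nitroglycerin mean above it. Rescaled, 0 of the 14 were higher and 1 was lower, against 5.5% and 6.44% of rows. The lower one was Tmx1, at a rescaled log2 difference of -0.18. As deposited, the 2 with the lowest p were Txnl1, a thioredoxin-like protein, and Ero1a, an oxidase of the endoplasmic reticulum. Their log2 differences were 0.38 and 0.50, or 0.091 and 0.18 rescaled.

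Selenium carries the catalysis of several glutathione peroxidases and of the thioredoxin reductases. Of 16 tested selenoproteins and genes of selenocysteine synthesis, 5 were higher as deposited at an unadjusted p under 0.05, against 34.1% of all rows. Rescaled, 2 were higher and 3 lower, against 5.5% and 6.44% of rows. The 3 lower were Selenon at -0.28, Selenos at -0.39 and Selenoh at -0.36 (rescaled log2 difference). Secisbp2, which lets a stop codon in selenoprotein mRNAs be read as selenocysteine, averaged 3.03 ± 0.334 FPKM in nitroglycerin and 1.93 ± 0.260 FPKM in controls. Its log2 difference was 0.46 (adjusted p = 0.0615), or 0.19 (adjusted p = 0.412) rescaled. Eefsec, the elongation factor that delivers the selenocysteine transfer RNA, averaged 1.75 ± 0.478 FPKM in nitroglycerin and 0.849 ± 0.0301 FPKM in controls, at a log2 difference of 0.56, or 0.34 (adjusted p = 0.366) rescaled. It is among the genes counted as higher on both scales, but every control lay under 1 FPKM and every nitroglycerin library above it. Eefsec thus passed the filter only through the group where it was high.

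**Figure D4:**
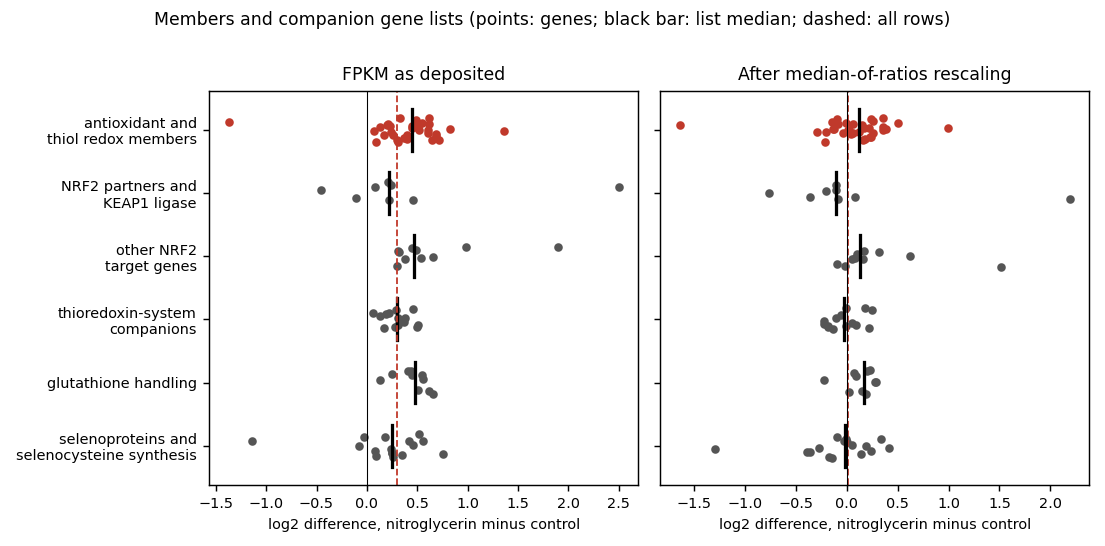
Log2 difference, nitroglycerin minus control, of each tested gene in the antioxidant and thiol redox set (red) and in 5 companion lists (grey), as deposited (left) and rescaled (right), with black bars for list medians and a dashed line for the median of all rows. Medians run from 0.21 to 0.48 on the left and from -0.11 to 0.17 on the right, and Maff is the point at 2.50 on the left.

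Summed markers of 2 of 6 cell types did not overlap between the groups as deposited, and those of 1 did not after rescaling. In FPKM as deposited, smooth muscle markers (9 of 11 with a row) spanned 1390 to 2795 in nitroglycerin and 2232 to 2907 in controls. Acta2 made up most of these sums, averaging 1602 FPKM in nitroglycerin and 2075 FPKM in controls. Rescaled, the sums spanned 1200 to 2620 in nitroglycerin and 2485 to 3214 in controls. Of the 9 smooth muscle markers, 1 lay above 0 after rescaling, with a median log2 difference of -0.62. At an unadjusted limma p under 0.05, 1 was then higher and 4 lower, against 5.5% and 6.44% of all rows. Endothelial markers (11 of 12) spanned 74.7 to 89.5 in nitroglycerin and 43.0 to 73.3 in controls, without overlap, but overlapped rescaled, at 68.8 to 77.3 in nitroglycerin and 47.5 to 83.0 in controls. Fibroblast markers (8 of 10) spanned 3167 to 3227 in nitroglycerin and 3669 to 5680 in controls, also without overlap. Col1a1 and Col3a1 made up 87.6 to 90.6% of that sum in nitroglycerin and 91.4 to 95.1% in controls. As deposited, 4 of the 8 fibroblast markers lay above 0, with log2 differences of 0.80 (Dcn), 0.82 (Fbln1), 0.67 (Pi16) and 0.39 (Dpt). The others were Col1a1 at -0.61, Cd34 at -0.51, Col3a1 at -0.47 and Lum at -0.14. After rescaling, 4 of the 8 lay above 0 and the list median was -0.25. Rescaled, the fibroblast sums remained apart, at 2603 to 2982 in nitroglycerin and 4329 to 5703 in controls. Macrophage markers (10 of 12) spanned 76.0 to 143 in nitroglycerin and 59.5 to 123 in controls, and red blood cell markers (5 of 10) 32.4 to 73.3 in nitroglycerin and 38.6 to 89.8 in controls. Adipocyte markers (12 of 12) were at 137 in nitroglycerin replicate 1, at 23.1 to 28.6 in the other nitroglycerin libraries and at 16.9 to 34.4 in controls. In single markers, 2 of 10 tested endothelial genes and 1 of 10 macrophage genes were called higher as deposited, against 1.29% of all rows, and 0 after rescaling, against 0.0308%. No marker with a row was at 0 in all libraries. With an adipocyte score as a covariate, 0 of the 33 genes were called, and their median log2 difference was 0.39, against 0.45 without it. The log2 difference of Prdx3 was 0.60 and that of Cat 0.39, both smaller than without the covariate. That of Gpx1 was 1.79 and that of Gsr 0.61, both larger. The part of the other cell types in the differences was not tested, and in whole tissue fewer cells of a type and less RNA per cell cannot be told apart.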

How the data were processed

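Per the labels' protocols, total RNA of 8 rat aorta libraries, 4 per group, was depleted of rRNA (Ribo-Zero Gold) and sequenced. Bowtie 0.12.2, HISAT2 2.0 and StringTie 1.3.0 and the builds mm8 and Rnor_6.0 are given, without roles, in the submitters' processing notes. The deposited gene table holds FPKM per gene and library, computed by the authors. The deposited lncRNA table gives FPKM, coverage per base (signal) and coding-potential scores, per the file headers. Coverage over FPKM, constant within each library, was taken as aligned sequence, 6.77 to 8.39 Gb in nitroglycerin and 7.48 to 8.86 Gb in controls. No counting intervals are given, since read counts are not used here. The extraction text speaks of an adipose type, whereas the tissue label is aorta.

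Members and lists were chosen with earlier results of these data known. The 12977 rows that reached 1 FPKM in 4 or more libraries were tested as log2(FPKM + 1) in R 4.3.3 (limma 3.58.1, trend on the mean, Benjamini-Hochberg over all rows), as deposited and after median-of-ratios rescaling, with factors from tested rows above 0 in all 8 libraries. Run on simulated data of 12977 genes, the test recovered 11.9% of 67 genes changed by a log2 of 0.585. It recovered 50.7% of 67 changed by 1 and 84.8% of 66 changed by 2, and 8 of 106 calls were false. Changes of the smallest size were thus mostly missed in the simulation, and genes not called here may still differ. As deposited, 34.1% of all rows were higher at an unadjusted limma p under 0.05, so these rates may not carry over. Members were described in full where they passed over all rows, had an unadjusted p under 0.05 on both scales or were among the 12 with the highest mean FPKM, and Prdx3, Gsr and Nqo1 were added after their values were seen. Companion genes were named where they passed or had 1 of the 2 lowest deposited p of their list. Ccs, Tmx1, Selenon, Selenos and Selenoh were added after their values were seen. Alternatives changed the pseudocount, filter, scaling, replicate block, weights, trend, rows used, covariate and libraries. Summing the rows of 1 symbol was chosen after seeing the data. Figures used Python 3.11.15 and matplotlib 3.10.9.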

Additional observations from a re-analysis of the deposited data

Results flagged for a closer look

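A single library stood far from its group in 9 of the 88 groups looked at (10.2%), and chance alone flags about 1 group in 20. Sod3 was at 89 FPKM in control replicate 2, against 0.681 to 6.03 FPKM in the other controls. Gpx1 was at 0.949 FPKM in control replicate 1, against 67.3 to 76.1 FPKM in the others. Gpx3 was at 85.5 FPKM in nitroglycerin replicate 3, with its group otherwise at 14.3 to 19.9 FPKM. Prdx3 was at 11.7 FPKM in nitroglycerin replicate 1, with its group otherwise at 5.43 to 5.52 FPKM. Txn1 was lowest in nitroglycerin replicate 4, at 45.3 FPKM, below 54.3 to 55.6 FPKM in that group's other libraries. Txn2 was lowest in control replicate 1, at 4.54 FPKM, below 12.5 to 14.1 FPKM. Control replicate 2 had the highest control values of Srxn1, 1.19 FPKM above 0.196 to 0.289 FPKM, and of Msra, 0.995 FPKM above 0.652 to 0.703 FPKM. Maff was at 5.2 FPKM in control replicate 1 and at 0.477 to 0.588 FPKM in the other controls.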

How the results depend on the processing

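The number of antioxidant genes called higher as deposited was 0 and became 6 with at least 1 FPKM in all libraries, 8 with array weights and 3 with annotated rows only, and it stayed 0 under every other alternative run. None was called lower under any of them. Over all rows, 167 were higher and 8 lower as deposited. Higher and lower calls were 7 and 0 with a pseudocount of 0.1, 1148 and 30 with the strict filter, 1883 and 53 with array weights, 813 and 15 with annotated rows only, 3 and 1 with the adipocyte covariate and 4 and 13 with median-of-ratios rescaling. They were 19 and 7 with no filter, 5 and 10 with quantile normalization and 35 and 6 with no trend. Leaving out 1 library gave 3 to 194 higher and 0 to 15 lower, and, rescaled, 0 to 5 higher (4 with all) and 0 to 27 lower (13 with all). Among NRF2 partners the called gene, Maff (log2 difference 2.50), was lost on rescaling (2.19), leaving 0, and also with a pseudocount of 0.1 (3.40, adjusted p = 0.0556), no filter (0.0910), no trend (0.0587), quantile normalization (0.205), the adipocyte covariate (0.106) and the replicate block (0.123). Its adjusted p was 0.0139 to 0.136 when 1 library was left out. With the replicate number as a block, 0 rows were called in limma on either scale (3869 higher and 168 lower at an unadjusted p under 0.05 as deposited). Same-numbered libraries had correlations of 0.133, -0.011, -0.012 and 0.121 for replicates 1 to 4, which are not correlations of whole expression levels. Between libraries of the same group, correlations were 0.862 to 0.890 in nitroglycerin and 0.886 to 0.904 in controls. Nitroglycerin replicates 1 and 4 were closest to the control of the same number, and replicates 2 and 3 to control replicates 1 and 4. Whether the labels' numbers pair the libraries is not settled by these values.

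Median-of-ratios rescaling, with or without the block, turned the log2 differences of Prdx2 to -0.13, Prdx4 to -0.29, Prdx5 to -0.21, Prdx6 to -0.12, Txn2 to -0.090, Txnrd2 to -0.036, Txnrd3 to -0.099, Glrx to -0.21, Keap1 to -0.0055 and Sqstm1 to -0.15. Quantile normalization gave Prdx2 -0.032, Prdx4 -0.20, Prdx5 -0.17, Prdx6 -0.080, Txn2 -0.018, Txnrd2 -0.068, Txnrd3 -0.12, Glrx -0.21, Keap1 -0.0079 and Sqstm1 -0.0064. Array weights gave Gpx1 -0.098, and the adipocyte covariate gave Prdx6 -0.089 and Glrx -0.17. Leaving out 1 library gave Gpx1 -0.58 to 1.44, Prdx4 -0.025 to 0.16, Prdx6 -0.086 to 0.47, Txn2 -0.076 to 0.46 and Glrx -0.29 to 0.34. The causes were not tested.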

Other observations

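The gene table holds 8 further rows with the symbols of 7 of the genes, all with assembled transcripts only. Those of Sod1, Gclm and Gsr were listed at 0 in all 4 nitroglycerin libraries and above 0 in some controls. The Gclm row had 0, 1.66, 1.59 and 0 FPKM in control replicates 1 to 4, and the Gsr row had 0, 0.0225, 1.61 and 0.418 FPKM. In the whole table, 450 of 3447 assembled-only rows with a symbol (13.1%) had this pattern and 438 (12.7%) the reverse, so zeros on 1 side were common. The other row of Txnrd2 and the smaller one of Sod2 were also mostly at 0. That of Txnrd2 had 0, 0, 0.524 and 0 FPKM in nitroglycerin, against 1.81, 0, 0.161 and 0 FPKM in controls.

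The further Sod1 row matches an lncRNA of the deposited lncRNA table, a single-exon transcript of 1753 bases on the minus strand of chromosome 11, at 30367272 to 30369024 in that table's coordinates, whose build is not given in the sources used here. It was listed at 0 FPKM in all nitroglycerin libraries, against 0.5, 0.121, 0 and 0.582 FPKM in control replicates 1 to 4. Its class code, x, marks exonic overlap on the opposite strand. Whether the counting used strand is not given in the sources used here, so reads from Sod1 and from this transcript cannot be told apart. Sod1 itself lay at 25.3 to 43.6 FPKM in controls, far above it.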
